A study of Mus musculus with 10 samples.

Results

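The genes followed through mouse intestinal epithelium are best known from neurons: Tubb3, Stmn2, Stmn3, Gap43, Nefl, Nefm, Snap25, Syt1, Uchl1 and Map2. These 10 of the 31053 genes in the count files were chosen by name, with earlier results of these data known. Their unique molecular identifiers (UMIs, 1 per captured RNA molecule) were summed per class of cell and per library. The question was which of them belonged to the enteroendocrine cells that every culture holds, and which appeared in other classes of the Hyper-organoids.

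The data were 10 droplet single-cell RNA-seq libraries, 8 of them from organoids grown from crypts of the mouse proximal small intestine. The medium of the ENR-organoids (3 libraries, passages 2, 7 and 3) held Noggin, EGF and R-Spondin 1. That of the Hyper-organoids (3 libraries, passages 1, 6 and 3) held the growth factors EGF and FGF2, R-Spondin 1 as conditioned medium, the BMP receptor inhibitor LDN193189, and GSK-3 Inhibitor XV with Pexmetinib. It also held VPA, which blocks histone deacetylases, and EPZ6438, which blocks the methyltransferase Ezh2. The -VE-organoids (2 libraries, passages 1 and 6) were kept in the Hyper medium without VPA and EPZ6438. EGF and R-Spondin 1 were thus shared by all 8. Hyper replicates 1 and 2 and both -VE libraries were started from ENR-organoids, and ENR replicate 3 and Hyper replicate 3 from primary crypts. The remaining libraries were colonic crypts of normal mice and of mice treated with DSS (dextran sulfate sodium, which injures the colon), 1 library each. The labels give no age, sex or strain and do not say which animals the libraries came from, so p-values measure the spread between these libraries.

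The authors kept 22139 organoid cells, between 1983 and 4293 per library, with a median of 38173.5 to 50651.5 UMIs per cell and 89124015 to 170019527 UMIs per library. Their enteroendocrine class held 61 to 107 cells per library, and 1897 to 4204 kept cells lay outside it. Chga and Chgb, granule proteins by which the class was named together with Cck and Neurog3, had 94.8 to 98.8% of their UMIs in it in every organoid library. The classes were drawn by clustering the same cells, so differences in level between classes are given as a description. Enteroendocrine cells were the shallower, with median depths of 14295 to 24908 UMIs against 38569 to 51410 in the others. Doublets were kept in, since the caller marked only 2 to 16 cells per organoid library and was not relied on. Between 11 and 26 kept barcodes per organoid library also occurred among the kept barcodes of another library.

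Neurons and enteroendocrine cells share a secretory machinery. Enteroendocrine cells are hormone-producing epithelial cells that release granules by the SNARE proteins used at synapses, and many send out a basal process held up by neurofilaments and microtubules. Stem, transit amplifying, goblet and absorptive cells are not known for these proteins. The 10 genes cover microtubules (Tubb3, a neuronal beta-tubulin, Map2, a microtubule-associated protein of dendrites, and Stmn2 and Stmn3, stathmins that bind tubulin), neurofilaments (Nefl and Nefm, the light and medium chains), the growth cone (Gap43), vesicle release (Snap25, a SNARE protein, and Syt1, its calcium sensor) and protein turnover (Uchl1, a deubiquitinase abundant in neurons).

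Positions are those of the GENCODE vM21 gene models on GRCm38, the build named mm10 in the processing notes. Tubb3 lies at chr8:123411424-123422015, Stmn2 at chr3:8509360-8561606, Stmn3 at chr2:181306459-181314500 and Gap43 at chr16:42248442-42340651. Nefl lies at chr14:68083863-68089095 and Nefm at chr14:68082590-68124846, on opposite strands and overlapping. Snap25 lies at chr2:136713453-136782428, Syt1 at chr10:108497650-109010982, Uchl1 at chr5:66676091-66687234 and Map2 at chr1:66175273-66442583. Tubb3, Syt1, Uchl1 and Map2 each overlap another gene model in the files (Gm20388, Gm5136, Uchl1os and Gm10558). How overlapping reads were assigned is not given in the sources used here.

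Promoter sequence was given for 5 of the 10 genes, from RefSeq on GRCm38.p6. It is shown for 2 genes with most of their UMIs in enteroendocrine cells in every organoid library (Tubb3 and Stmn3) and for 2 with most of them in other classes in the Hyper libraries (Uchl1 and Map2), so that both can be read side by side. Each run holds the bases before the first annotated start, 5′ to 3′ on the gene's strand, with CpG dinucleotides in capitals.
Tubb3 (chr8:123411303-123411423, plus strand): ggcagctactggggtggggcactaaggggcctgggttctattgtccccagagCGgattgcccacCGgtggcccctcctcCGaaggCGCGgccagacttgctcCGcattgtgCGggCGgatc
Stmn3 (chr2:181314501-181314750, minus strand): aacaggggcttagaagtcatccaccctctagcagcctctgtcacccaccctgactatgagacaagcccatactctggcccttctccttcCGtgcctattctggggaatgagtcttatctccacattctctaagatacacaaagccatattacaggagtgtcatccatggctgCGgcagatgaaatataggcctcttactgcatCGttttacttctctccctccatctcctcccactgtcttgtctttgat
Uchl1 (chr5:66675871-66676090, plus strand): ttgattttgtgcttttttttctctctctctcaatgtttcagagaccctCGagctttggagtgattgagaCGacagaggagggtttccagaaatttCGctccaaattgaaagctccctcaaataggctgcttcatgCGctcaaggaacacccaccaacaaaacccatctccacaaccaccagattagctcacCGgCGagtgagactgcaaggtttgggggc
Map2 (chr1:66175079-66175272, plus strand): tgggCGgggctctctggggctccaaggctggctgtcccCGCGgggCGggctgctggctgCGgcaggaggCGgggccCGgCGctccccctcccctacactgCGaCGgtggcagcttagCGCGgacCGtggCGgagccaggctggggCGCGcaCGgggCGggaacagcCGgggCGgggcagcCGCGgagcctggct

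Over the whole RefSeq window of 300 bases (250 before the start and 50 after it), Map2 held 37 CpG dinucleotides and Tubb3 held 26, against a median of 7 over all 32851 windows. Uchl1 held 9 and Stmn3 held 6. The left and right parts of the RE1 element, the site of the neuronal gene repressor Rest, were searched on both strands as TTCAGCACC and GGACAGCGC. They occurred in 0.371% and 0.405% of all windows and in none of the windows of Tubb3, Stmn3, Syt1, Uchl1 and Map2. This says only that these letters are not in these windows.

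In ENR-organoids most UMIs of Tubb3, Stmn3, Nefl, Nefm, Snap25 and Uchl1 lay in enteroendocrine cells. Tubb3 reached 126, 111 and 132 CPM (the gene's share of all UMIs summed over the class, on the usual counts-per-million scale) in the enteroendocrine cells of the 3 ENR libraries. It stood at 0.0834, 0.0494 and 0.0681 CPM in all other cells of the same libraries. Enteroendocrine cells thus held 95.3, 96.3 and 95.6% of its UMIs.

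Nefl, the light neurofilament chain, was at 70.7, 21.1 and 47.2 CPM in the enteroendocrine cells of ENR-organoids, with 4 UMIs in all other cells of the 3 libraries. Nefm, its medium partner, was at 305, 435 and 274 CPM in enteroendocrine cells and at 0.521, 0.337 and 0.420 CPM elsewhere. Snap25 was at 85.4, 97.7 and 60.6 CPM in enteroendocrine cells, with 7 UMIs elsewhere. These 3 genes therefore had a clear enteroendocrine level in the unmodified culture, 87.8% or more of it inside the class in every ENR library.

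The other members were scarce in ENR-organoids. Map2 had 16, 10 and 4 UMIs in enteroendocrine cells and 5, 2 and 3 elsewhere. Stmn3 had 5, 9 and 1, all in enteroendocrine cells, and Uchl1 had 7, 2 and 3 there and 1 elsewhere. Syt1 had 5 UMIs and Stmn2 none in the enteroendocrine cells of the 3 libraries together. Gap43 had 0 UMIs in enteroendocrine cells and 3 in other cells. No class could be called the site of Stmn2 or Gap43 at this depth.

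**Figure D1:**
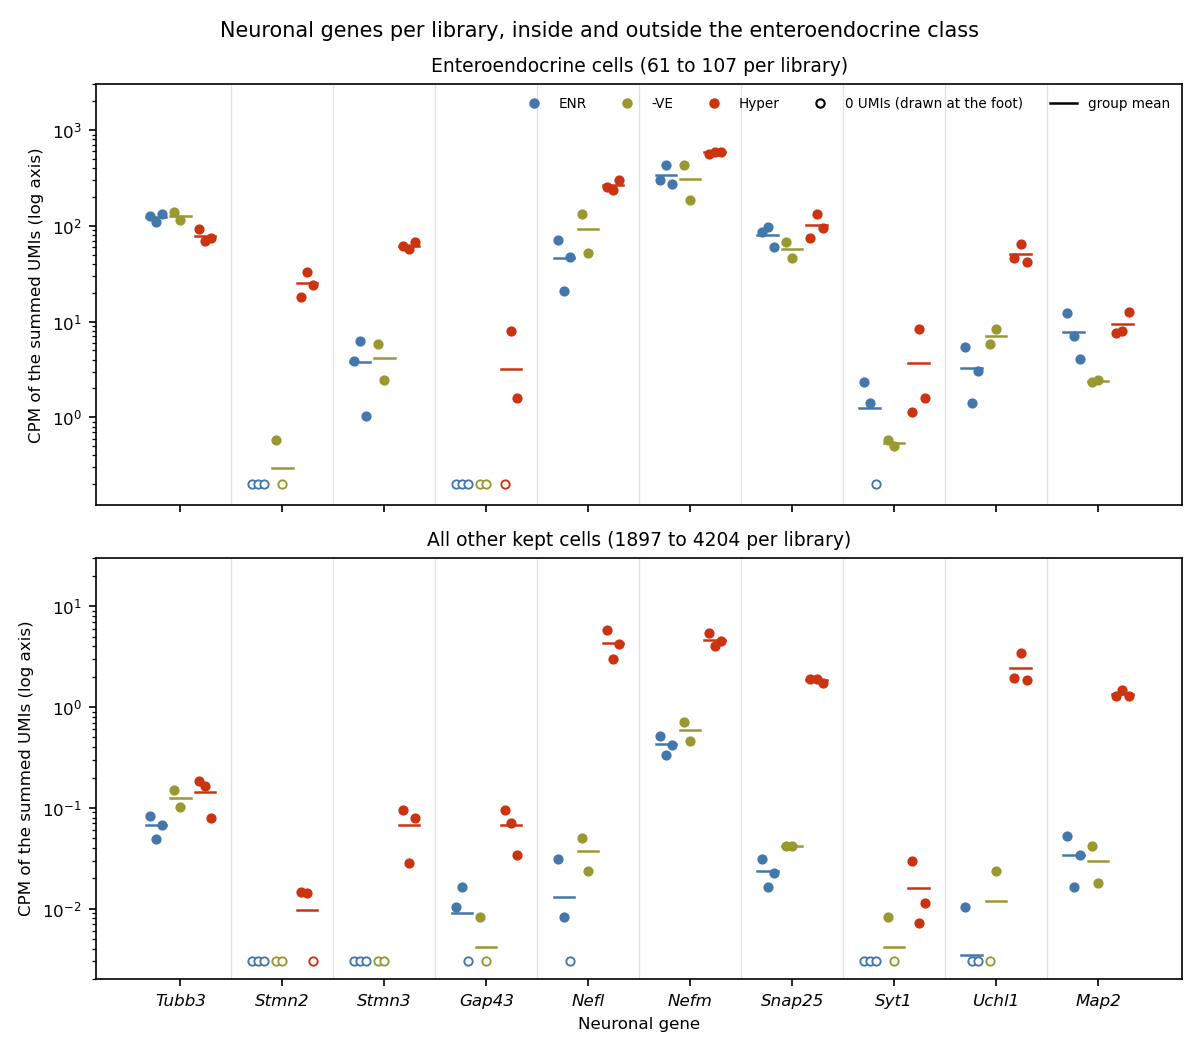
Level of the 10 neuronal genes in each organoid library, as CPM of the summed UMIs on a log axis, in enteroendocrine cells (top) and in all other kept cells (bottom), with a bar at the group mean (3 ENR, 2 -VE and 3 Hyper libraries). Nefl, Nefm, Snap25, Uchl1 and Map2 lie between 1.30 and 5.76 CPM in other cells of the Hyper libraries and at or under 0.708 CPM in the ENR and -VE libraries, whereas Tubb3 stays at or under 0.184 CPM in all 8.

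Outside the enteroendocrine class, 5 neuronal genes rose in Hyper-organoids. The sums over all other cells of each library were compared with edgeR's quasi-likelihood test, and a gene was called when its Benjamini-Hochberg adjusted p was under 0.05 and its change at least 2-fold. Of the 10 members 6 passed the filter on low counts, and 5 of these were called higher in Hyper-organoids than in ENR-organoids, where 18.4% of the 15738 genes tested were called higher. The 5 were Nefl, Nefm, Snap25, Uchl1 and Map2. Because the filter keeps a gene that is high in 1 group only, this count describes the tested members and not all 10.

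Nefl stood at 5.76, 3.01 and 4.20 CPM in the other cells of the Hyper libraries and at 0.0313, 0.00823 and 0 CPM in those of ENR. The groups did not overlap, which held of 40.0% of all genes tested, and Hyper replicate 1 was the highest. The difference was 8.14 ± 0.56 (log2, adjusted p = 1.2e-05). Here and below, the ± after a log2 difference is that difference divided by the square root of its F statistic. It is not a fitted standard error and can understate the error where a group held few UMIs. Nefm stood at 5.40, 4.06 and 4.49 CPM in Hyper-organoids against 0.521, 0.337 and 0.420 CPM, a difference of 3.33 ± 0.24 (log2, adjusted p = 1.54e-05). The ENR cells already held some Nefm, at 37 to 50 UMIs per library against 0 to 3 of Nefl.

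Snap25, the SNARE protein, was even across the Hyper libraries at 1.91, 1.91 and 1.73 CPM, against 0.0313, 0.0165 and 0.0227 CPM in ENR (difference 6.14 ± 0.26, log2, adjusted p = 1.59e-06). Map2, the dendritic microtubule protein, stood at 1.30, 1.48 and 1.30 CPM against 0.0521, 0.0165 and 0.0340 CPM (5.19 ± 0.38, adjusted p = 1.7e-05). Both pairs of groups were separated by a wide gap. Uchl1 stood at 1.94, 3.46 and 1.87 CPM in Hyper-organoids and had 1 UMI in ENR, so its ratio of 766 carries a 95% counting interval of 137 to 30300 (adjusted p = 3.13e-05 from the fit). Hyper replicate 2 was the highest for Uchl1 and the lowest for Nefl, so the 5 genes did not share an order across the 3 libraries.

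Tubb3, the beta-tubulin, was not among them. It had 25, 23 and 7 UMIs in the other cells of the Hyper libraries (0.184, 0.164 and 0.0792 CPM) against 8, 6 and 6 in ENR, and the groups overlapped. Its difference of 1.00 ± 0.42 (log2) was not called (adjusted p = 0.0736), though leaving out Hyper replicate 3 brought it past both thresholds. Stmn2 with 4 UMIs, Syt1 with 6, Stmn3 with 24 and Gap43 with 26 over all other cells of the Hyper libraries were too few to be tested. Stmn3 had none in ENR, which makes it at least 6.71-fold higher (against 3 counts over the group). Gap43 had 3, a ratio of 7.27 with a 95% counting interval of 2.23 to 37.5.

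The same 5 genes rose against -VE-organoids, which lack VPA and EPZ6438 and share the rest of the medium. In the other cells of the -VE libraries Nefl stood at 0.05 and 0.0238 CPM, Nefm at 0.708 and 0.464, Snap25 at 0.0416 and 0.0417, Map2 at 0.0416 and 0.0179, and Uchl1 at 0 and 0.0238. All 5 lay under every Hyper value, as in 43.3% of genes. Differences (Hyper minus -VE, log2) ranged from 2.87 ± 0.27 for Nefm to 7.25 ± 0.73 for Uchl1, with adjusted p between 1.19e-05 and 0.00018, where 15.9% of genes were called higher. The -VE and ENR libraries were then compared, and 0 of the 6 tested members were called in edgeR or in DESeq2, where edgeR called 3.03% of genes in either direction. At an unadjusted p under 0.05 there were 0 as well, the smallest being 0.0873 for Tubb3. These contrasts share libraries, so they are given side by side and are not independent.

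Without the split into classes, enteroendocrine changes and changes elsewhere cannot be told apart. Summed over all kept cells, 9 members were tested and 8 were called higher in Hyper-organoids than in ENR-organoids (18.2% of genes), all but Tubb3 at -0.06 ± 0.23 (log2, adjusted p = 0.85). Stmn2, Stmn3 and Gap43 joined the 5 genes in that count.

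The rise was seen in each of the 3 other classes that were fitted, those with at least 20 cells in every organoid library. In the stem class, the 5 genes were called higher in Hyper-organoids than in ENR-organoids (15.2% of genes called higher) and than in -VE-organoids (14.7%). Nefl had 357, 170 and 147 UMIs in the stem cells of the Hyper libraries against 1, 0 and 0 in ENR. Uchl1 had 109, 171 and 56 against 0 in each ENR and each -VE library, at least 26.7-fold higher than in ENR. Snap25 had 101, 100 and 62 against 0, 1 and 0, and Map2 had 31, 42 and 22 against 0 in each.

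In the transit amplifying class, the dividing progeny of stem cells, the 5 were called as well (17.2% of genes called higher against ENR and 15.5% against -VE). Map2 stood at 1.76, 1.78 and 1.70 CPM there in the Hyper libraries and at 0.623, 0.809 and 0.606 CPM in their stem class, so the 2 ranges did not overlap. Snap25 overlapped between them at one end, at 1.64, 1.73 and 1.45 CPM against 2.03, 1.93 and 1.71. Uchl1 overlapped throughout, at 1.80, 3.17 and 1.68 CPM against 2.19, 3.29 and 1.54.

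Goblet cells, the mucus-secreting class, carried the highest neurofilament levels of these 3 classes. Nefl stood at 18.0, 13.4 and 15.0 CPM in the goblet class of the Hyper libraries and at 0 UMIs in that of every ENR and -VE library, at least 62.1-fold higher than in ENR. Nefm stood at 23.4, 20.7 and 37.6 CPM against 0.569, 0.196 and 0 in ENR and 4.70 and 1.36 in -VE. The 5 genes were called against ENR (10.7% of genes called higher) and against -VE (8.72%). The goblet class of the Hyper libraries also held more Neurog3, the transcription factor that starts the enteroendocrine fate, at 132, 76.9 and 90.0 CPM against 24.2, 22.1 and 22.1 in ENR (2.02 ± 0.19, log2, adjusted p = 1.88e-05). Neurod1, which acts after it, had 14, 30 and 14 UMIs in that class against 1, 1 and 0 in ENR (adjusted p = 0.00119 from the fit) and 5 and 6 in -VE (2.44 ± 0.53, adjusted p = 0.00711). With every cell left out that had a UMI of Chga, Chgb, Neurod1, Neurog3 or Cck, a choice made after seeing the data, the 5 genes were still called in the goblet and transit amplifying classes in both Hyper contrasts. The shares of all genes called in these refits are not given here.

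Enterocytes and their progenitors were rare in the Hyper libraries (7 to 58 and 2 to 3 cells). Map2 and Nefl had 0 UMIs in the enterocytes of the 3 Hyper libraries, and Snap25 had 2, 3 and 6. The revival stem class held 5 to 26 cells per Hyper library, with 3, 7 and 15 UMIs of Nefl and 0, 33 and 19 of Uchl1. These classes were too small for a test.

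**Figure D2:**
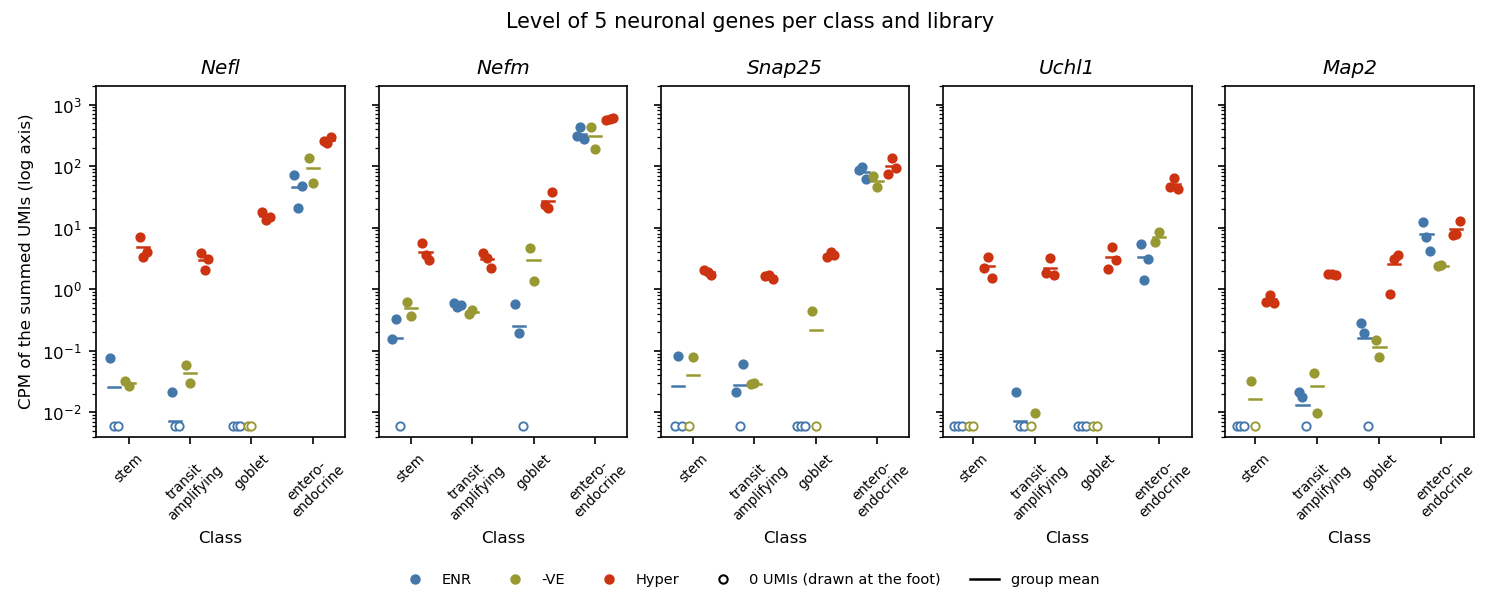
Level of Nefl, Nefm, Snap25, Uchl1 and Map2 in 4 classes of each organoid library, as CPM of the summed UMIs on a log axis, with open circles at the foot for libraries with 0 UMIs. In each of the stem, transit amplifying and goblet classes the Hyper points lie above every ENR and -VE point, and the enteroendocrine class of the same libraries is higher still.

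In enteroendocrine cells of Hyper-organoids the members that rose were the stathmins, Nefl and Uchl1. Of the 8 members tested there, 4 were called higher than in ENR-organoids, where 5.96% of 11050 genes were called higher, and 4 were called against -VE-organoids, where 3.52% were. The 4 were Stmn2, Stmn3, Nefl and Uchl1 in both contrasts. The class differed in endocrine genes too, since 0 of 23 enteroendocrine genes were called higher than in ENR and 5 lower (1.44% of genes were called lower). Cck differed by -2.24 ± 0.51 (log2, adjusted p = 0.0135), and Neurog3 stood at 933, 1080 and 1010 CPM against 464, 537 and 784, under 2-fold. Their part in the result was not tested. Stmn2, a tubulin-binding stathmin, had 48, 71 and 46 UMIs in the Hyper libraries and 0 in each ENR library, which makes it at least 30.2-fold higher (adjusted p = 0.000275 from the fit). Stmn3 stood at 61.4, 57.1 and 67.6 CPM against 3.88, 6.33 and 1.03 CPM, a difference of 4.00 ± 0.33 (log2, adjusted p = 4.1e-05).

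Uchl1 stood at 46.3, 64.0 and 42.3 CPM in Hyper enteroendocrine cells against 5.44, 1.41 and 3.08 CPM (4.01 ± 0.34, adjusted p = 4.93e-05). Nefl stood at 256, 238 and 302 CPM against 70.7, 21.1 and 47.2 CPM (2.61 ± 0.37, adjusted p = 0.001). For all 4 the Hyper libraries lay above every ENR library (14.9% of genes) and every -VE library (21.3%). The call of Nefl against -VE (1.51 ± 0.38, adjusted p = 0.0429) did not hold in DESeq2 or without ENR replicate 3, -VE replicate 2 or any one of the Hyper replicates. Its difference was 0.97 without -VE replicate 2 and 2.29 without -VE replicate 1, where it was still called.

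The other 4 members tested in enteroendocrine cells were not called. Nefm was at 567, 592 and 596 CPM in Hyper against 305, 435 and 274 CPM in ENR, 0.87 ± 0.25 higher (log2, adjusted p = 0.0382), which is under 2-fold. It passed 2-fold without ENR replicate 2, at 1.07. Tubb3 was at 93.0, 69.1 and 75.0 CPM against 126, 111 and 132 CPM, a difference of -0.55 ± 0.16 (adjusted p = 0.0377) that was also under 2-fold. Snap25 (75.3, 133 and 94.6 CPM against 85.4, 97.7 and 60.6) and Map2 (7.53, 7.89 and 12.7 CPM against 12.4, 7.03 and 4.11) overlapped between the groups. Against -VE none of these 4 was called either, though each was under 1 alternative. Map2 (2.34 and 2.48 CPM in -VE) differed by 1.89 ± 0.53 (log2, adjusted p = 0.0624) and was called with no filter on low counts, and Snap25 (67.8 and 46.1 CPM) differed by 0.80 ± 0.24 (adjusted p = 0.0843), with the Hyper libraries above both -VE libraries for each. Nefm differed by 0.90 ± 0.28 (adjusted p = 0.0954) and was called without -VE replicate 1, at 1.60. Tubb3 differed by -0.70 ± 0.17 (adjusted p = 0.037, under 2-fold), and Tubb3 and Snap25 were called with cells thinned to 10000 UMIs, at -1.01 and 1.01. Between -VE and ENR 0 of the 8 were called in edgeR or DESeq2 (0.19% of genes in edgeR), and 3 had an unadjusted p under 0.05 (Map2 at 0.0149, Nefl at 0.0207 and Uchl1 at 0.0278).

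Gap43, a growth cone protein, and Syt1, the calcium sensor of vesicle release, stayed under the filter in enteroendocrine cells. Gap43 had 0, 17 and 3 UMIs in those of the Hyper libraries and 0 in every ENR and -VE library. Syt1 had 3, 18 and 3 against 3, 2 and 0 in ENR and 1 and 1 in -VE. Most UMIs of both came from Hyper replicate 2, where all 17 of Gap43 lay in 1 of 107 cells and the 18 of Syt1 in 6.

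The change of each member was then set against itself in the 2 compartments, in a single fit with the library as a block. Between Hyper and ENR, the change in other cells exceeded that in enteroendocrine cells by 5.76 ± 0.36 for Snap25 (log2, adjusted p = 3.06e-11), 5.35 ± 0.45 for Nefl (adjusted p = 4.22e-09) and 4.86 ± 0.66 for Map2 (adjusted p = 7.55e-06). The excess was 4.61 ± 0.95 for Uchl1 (adjusted p = 0.00127) and 2.46 ± 0.22 for Nefm (adjusted p = 9.35e-09). Outside the class the ENR libraries together held only 1 UMI of Uchl1, 4 of Nefl, 7 of Snap25 and 10 of Map2, so these sizes are uncertain. They compare fold changes and not levels. In CPM each of the 5 genes stayed higher inside the class in every Hyper library. The difference for Tubb3 was 1.58 ± 0.36 (adjusted p = 0.00342), although it was called in neither compartment alone. Over all 16191 genes tested, 8.23% had a larger change in other cells at an adjusted p under 0.05. The other 4 members passed no such test, and for Stmn3 the difference was 0.93 ± 0.70 (adjusted p = 0.476). Chga and Chgb gave 1.03 ± 0.26 (adjusted p = 0.00823) and 0.94 ± 0.14 (adjusted p = 3.74e-05), and Neurod1 gave 2.35 ± 0.30 (adjusted p = 3.59e-06), so these endocrine genes had an excess of the same sign, near that of Nefm for Neurod1 and below those of Nefl, Snap25, Uchl1 and Map2. The sizes were not compared by a test between genes. Between Hyper and -VE, 5 members passed (Nefl, Nefm, Snap25, Uchl1 and Map2, at 1.86 to 5.10, with 3.58% of genes larger in other cells). Map2 no longer passed without -VE replicate 2 or without Hyper replicate 2. Between -VE and ENR 0 of the 10 passed in edgeR (1.14% of genes in either direction), and Nefm alone had an unadjusted p under 0.05 (0.0327).

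The 5 genes thus had a smaller share of their UMIs inside the enteroendocrine class. The ENR shares of Uchl1 rest on 8, 2 and 3 UMIs per library and those of Map2 on 21, 12 and 7. Enteroendocrine cells held 97.5 ± 0.947% of Snap25 UMIs in ENR-organoids and 49.7 ± 5.5% in Hyper-organoids (mean ± SD, n = 3 and 3). The share of Nefl went from 97.9 ± 1.85% to 54.0 ± 7.13%, that of Nefm from 90.1 ± 3.22% to 70.1 ± 3.48%, that of Uchl1 from 95.8 ± 7.22% to 28.9 ± 5.81% and that of Map2 from 72.2 ± 13.5% to 11.7 ± 5.01%. For all 5 the ranges were apart, at a 2-sided exact permutation p of 0.1, the smallest that 3 against 3 libraries allow. With the libraries paired by culture series the p was 0.25 for each, the smallest that 3 pairs allow, and the share was lower in Hyper in 3 of 3 pairs. Most Map2 UMIs of the kept cells of each Hyper library thus lay outside the enteroendocrine class. These are shares of captured UMIs, and enteroendocrine cells were the shallower.

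Tubb3 kept 90.8, 86.6 and 95.3% of its UMIs in enteroendocrine cells of the Hyper libraries (exact permutation p = 0.2). Stmn3 had all of its 5, 9 and 1 UMIs in that class in ENR and kept 92.6, 96.9 and 94.8% in Hyper (exact permutation p = 0.1). Stmn2 kept 96.0, 97.3 and 100%. Chga stood at 97.2 ± 1.32% in Hyper and 98.3 ± 0.214% in ENR, and Chgb at 98.2 ± 0.478% and 98.8 ± 0.124% (exact permutation p = 0.4 and 0.2). Within pairs the share of Tubb3, Stmn3 and Chgb was also lower in Hyper in 3 of 3 pairs (paired exact permutation p = 0.25 for each). A lower share in 3 of 3 pairs was thus not particular to the 5 genes, which differed in the size of the drop. The ranges of Stmn3 were apart too, but its ENR shares rest on too few UMIs to judge that separation. In the Hyper libraries Tubb3 and the stathmins thus had 86.6% or more of their UMIs in the class, and the other 5 genes had 74.0% or less.

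**Figure D3:**
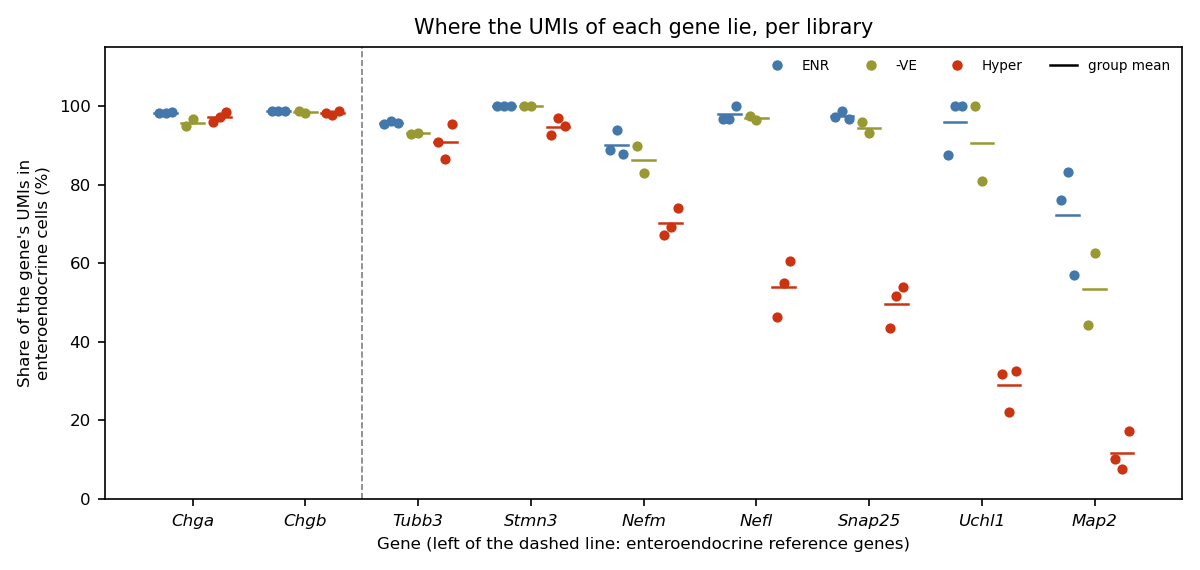
Share of each gene's UMIs that lay in enteroendocrine cells, in percent, for each organoid library, with a bar at the group mean. Chga, Chgb, Tubb3 and Stmn3 stay above 86% in the Hyper libraries, whereas Nefm, Nefl, Snap25, Uchl1 and Map2 lie between 7.59 and 74.0% there.

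To set the levels beside those of endocrine genes in the same cells, UMIs were counted per 100 UMIs of Chga and Chgb. The makeup of free RNA in the droplets was not measured. In Hyper enteroendocrine cells Nefl had 4.20, 1.45 and 2.40 per 100, and in the other cells of the same libraries 219, 51.3 and 119. Uchl1 had 0.761, 0.391 and 0.336 against 73.7, 59.0 and 53.1, and Map2 had 0.124, 0.0482 and 0.101 against 49.2, 25.2 and 37.0. In ENR libraries Snap25 had 0.378, 0.668 and 0.357 per 100 in enteroendocrine cells and 0.725, 0.760 and 1.01 in the others. Nefm had 1.35, 2.98 and 1.62 against 12.1, 15.6 and 18.6. For Cck, a peptide hormone, the ratio in Hyper libraries was 10.6, 26.2 and 12.9 in enteroendocrine cells and 17.0, 18.3 and 21.2 in others, and for Tubb3 it was 1.53, 0.422 and 0.596 against 6.98, 2.80 and 2.25. Neurod1, a transcription factor of enteroendocrine cells, had 4.99, 1.81 and 2.55 against 11.2, 7.32 and 9.65, so its ratio was higher outside the class in every Hyper library.

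**Figure D4:**
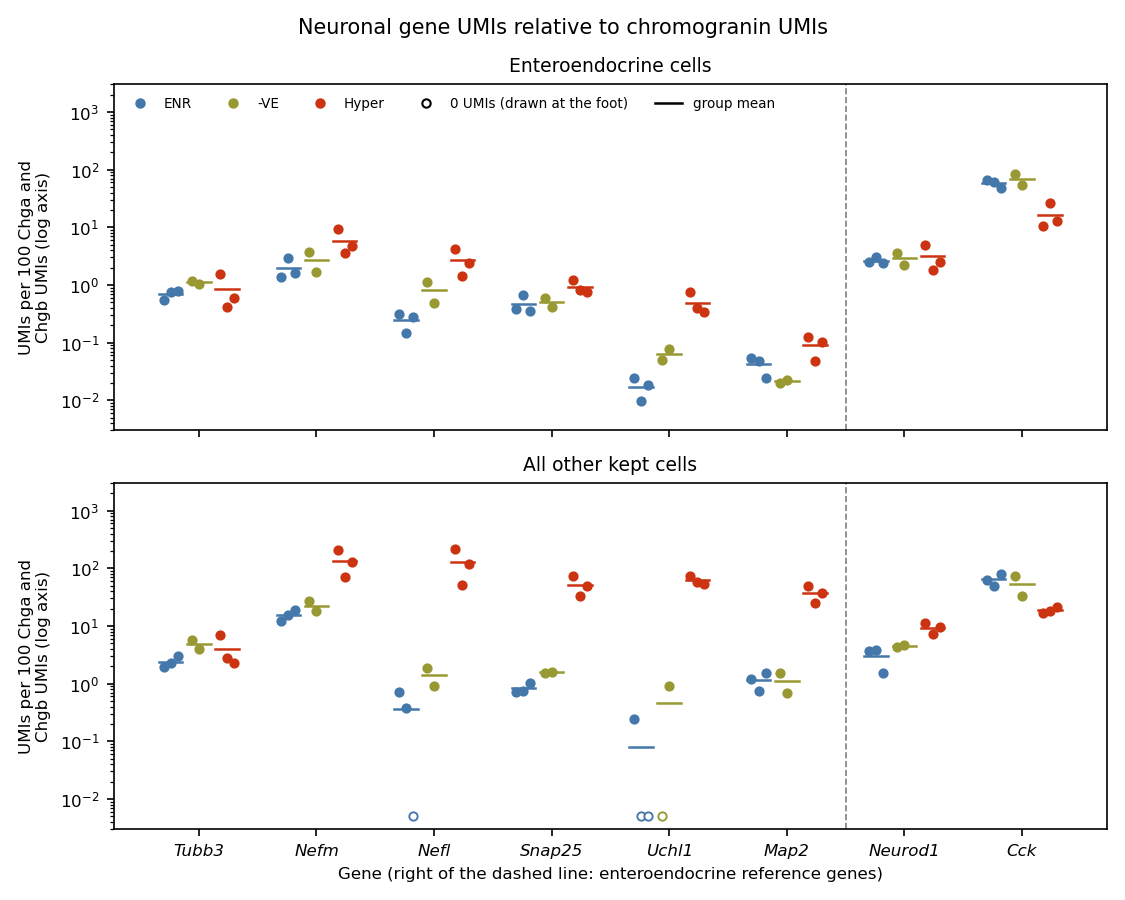
UMIs of 6 neuronal genes and of the enteroendocrine genes Neurod1 and Cck per 100 UMIs of Chga and Chgb, on a log axis, in enteroendocrine cells (top) and other cells (bottom) of each organoid library. In other cells of the Hyper libraries Nefm, Nefl, Snap25, Uchl1 and Map2 lie between 25.2 and 219 per 100, against 0.0482 to 9.31 in the enteroendocrine cells of those libraries, while Cck overlaps between the compartments and Neurod1 lies at 7.32 to 11.2 against 1.81 to 4.99.

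Many of the other cells held a UMI of these genes. Before any thinning, 39.2, 29.5 and 29.6% of the other cells of the Hyper libraries had a UMI of at least 1 of the 5 genes, against 2.22, 1.47 and 1.44% in ENR and 2.42 and 1.52% in -VE. With each cell reduced at random to 10000 UMIs, leaving aside those with fewer, the shares were 12.6, 10.4 and 10.3% in Hyper and 0.451 to 0.619% in the others. The share was higher in the goblet class (27.9, 23.6 and 25.8%) than in the stem (12.8, 10.2 and 9.78%) and transit amplifying (10.6, 9.04 and 8.15%) classes of the Hyper libraries. Median depth was close between the groups, at 38569 to 48251 UMIs per other cell in ENR and 39531 to 48641 in Hyper.

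For single genes, thinned, 3.79 ± 1.13% of the other cells of Hyper-organoids had a UMI of Nefl (n = 3), 3.74 ± 0.628% of Nefm, 2.05 ± 0.695% of Uchl1, 1.72 ± 0.206% of Snap25 and 1.15 ± 0.224% of Map2. In ENR the share was 0.459 ± 0.00736% for Nefm. For Nefl it was 0 of 1940, 2440 and 2159 cells, which allows up to 0.155, 0.123 and 0.139%. Each of the 5 comparisons had an exact permutation p of 0.1, the smallest possible. Such shares cover only cells in which a molecule was caught, and intervals and limits cover counting error only.

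Most cells with a UMI had a single one. Of the 405 other cells with Nefl in Hyper replicate 1, 235 had 1 UMI and 80 had 3 or more, with 17 at most. Of the 228 cells with Snap25 there, 202 had 1 and 3 had 3 or more. Nefm had 49 UMIs in 1 cell of Hyper replicate 3, where the top 1% of cells held 46.3% of its UMIs, against 25.7 and 37.8% in the other Hyper libraries. That share was 22.7% or more for each of the 5 genes in each Hyper library, up to 40.6% for Uchl1 and 39.0% for Nefl.

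Most cells with these genes had no UMI of Chga, Chgb, Neurod1, Neurog3 or Cck. The share with such a UMI was nevertheless higher among cells with the gene than among those without it in 13 of the 15 pairs of a gene and a Hyper library, at 10.7 to 23.5% against 11.2 to 16.8%. For Snap25 it was 11.4, 23.5 and 16.5% against 11.9, 16.3 and 13.6%, and for Nefl 15.1, 18.4 and 21.3% against 11.3, 16.7 and 12.9%. These shares were read in unthinned cells with all other classes pooled. A deeper cell is likelier to show a UMI of both kinds, and the part of depth and class was not tested. In the 2393 other cells of Hyper replicate 1 with no UMI of the 5 markers, 654 of the 783 Nefl UMIs and 228 of the 260 Snap25 UMIs were found. In such cells of Hyper replicates 2 and 3 lay 313 of 421 and 280 of 371 Nefl UMIs. For Snap25 the counts there were 199 of 267 and 124 of 153. Fitted without any cell that had such a UMI, the non-enteroendocrine sums still gave all 5 genes as called. The share of all genes called in that fit is not given here.

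**Figure D5:**
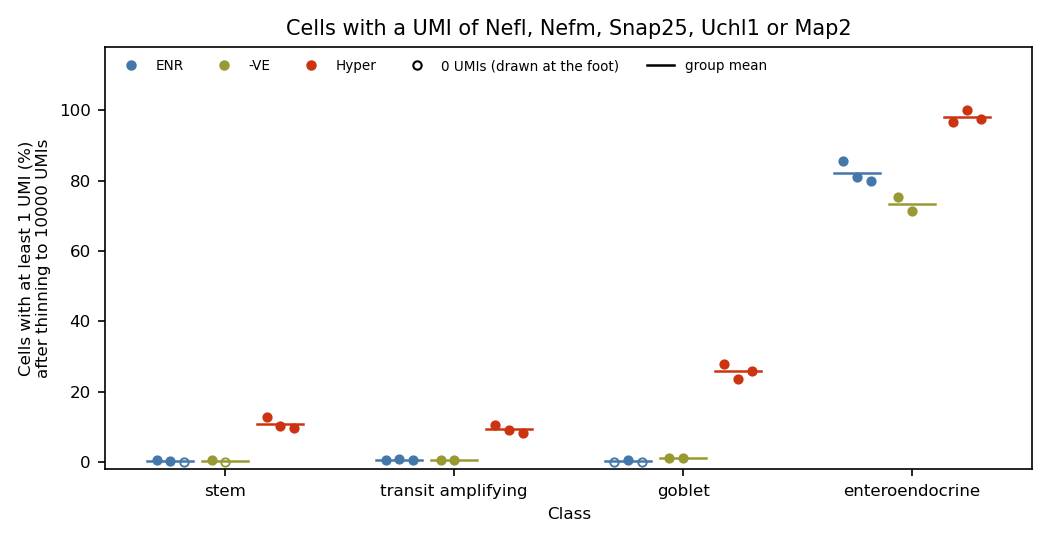
Share of cells with at least 1 UMI of Nefl, Nefm, Snap25, Uchl1 or Map2 after every cell was thinned to 10000 UMIs, in percent, by class and organoid library, with a bar at the group mean. The Hyper libraries lie at 8.15 to 12.8% in the stem and transit amplifying classes and at 23.6 to 27.9% in the goblet class, and the ENR and -VE libraries at or under 1.23% in all 3.

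Markers of other cell types were read in the same sums, where 18.4% of all genes were called higher and 4.82% lower. Of 11 enteric neuron markers, Vip, a neuropeptide, was at 0 UMIs in the other cells of all 8 libraries. The summed level of the list was 25.4 to 26.7 CPM in Hyper and 16 to 16.5 in ENR, and of its 5 tested members Elavl4, Ret and Prph were called higher. Elavl4 and Prph also stood on lists of neuronal genes used here. Of 8 enteric glia markers Cdh19 was at 0 throughout, and the summed level was 29.0 to 38.2 CPM in Hyper against 43.3 to 46.2 in ENR. Ptprc, the pan-leukocyte marker, was at 0 in every Hyper and -VE library and in ENR replicates 1 and 3. The summed level of the 8 immune genes was 0.957 to 1.88 CPM in Hyper against 0.573 to 0.634 in ENR. Of 4 tested immune genes Coro1a, an actin-binding protein, was called higher, at 1.21, 0.400 and 0.690 CPM in Hyper.

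Of 9 stromal genes Acta2 and Col3a1 were at 0 in 2 and 1 of the Hyper libraries, and the summed level was 12.3 to 85.9 CPM in Hyper against 0.955 to 1.13 in ENR. Nearly all of it was Vim, an intermediate filament protein, at 84.4, 20.6 and 11.1 CPM. Vim, Pdgfra and Col1a1 were called higher of 5 tested, beside 18.4% of all genes. Of 10 tuft cell markers 2 were called higher and 5 lower of 8 tested, beside 18.4% and 4.82% of all genes. Their summed level was 2.43 to 3.33 CPM in Hyper and 1.19 to 3.72 in ENR. None of 5 general epithelial genes was called. The part of these cell types in the result was not tested beyond these values.

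Further neuronal genes were taken as lists. As for the members, a gene could pass the filter on low counts through the Hyper libraries alone, so counts and medians over tested genes lean towards higher and describe only those genes. Among 22 genes of the axon and its cytoskeleton, 16 of 20 tested were called higher in the other cells of Hyper-organoids than in ENR and none lower, with a median difference of 2.05 (log2) against -0.01 over all genes tested, of which 18.4% were called higher. Map1b, a microtubule protein of growing axons, stood at 4.60, 2.92 and 3.07 CPM against 0.0730, 0.0412 and 0.0340 (6.01 ± 0.32, adjusted p = 3.78e-06). Basp1, a growth cone protein that the study also used as 1 of its revival stem cell genes, stood at 4.92, 5.19 and 3.55 CPM (5.86 ± 0.58, adjusted p = 7.12e-05). Ank2, an ankyrin that ties membrane proteins to the cytoskeleton, had 696, 1166 and 600 UMIs against 0, 2 and 0, and Map6 had 26, 36 and 31 against 0, 0 and 1. Mapt, which encodes tau, was not called (-0.42, adjusted p = 0.14).

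Among 30 genes of synaptic vesicles and their release, 14 of 20 tested were called higher and none lower (median 2.42, beside the same 18.4% of all genes, which also holds for both lists below). Sncb, beta-synuclein, stood at 8.53, 3.73 and 3.24 CPM against 0.0208, 0.0576 and 0.0227 (7.02 ± 0.70, adjusted p = 7.46e-05), highest in Hyper replicate 1. Syn2, a synapsin, differed by 6.27 ± 0.46 (adjusted p = 1.66e-05), Syt13 by 4.53 ± 0.39 (adjusted p = 3.46e-05) and Rab3b by 4.18 ± 0.24 (adjusted p = 5.15e-06). Syp and Sv2c were not called, at 0.07 and -0.56.

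Among 18 neuronal RNA-binding proteins and enzymes, 11 of 15 tested were called higher and none lower (median 3.29). Elavl4 stood at 0.986, 1.59 and 0.917 CPM against 3 UMIs in ENR. Celf4 stood at 6.08, 7.16 and 8.62 CPM against 0.615, 0.428 and 0.476 (3.72 ± 0.21, adjusted p = 5.12e-06) and Nsg1 at 0.486, 0.393 and 0.181 CPM (4.26 ± 0.76, adjusted p = 0.00166). Nova1 had 14, 23 and 20 UMIs against 0, 2 and 0. Among 20 neural transcription factors, 8 of 12 tested were called higher and none lower (median 2.74). Isl2 had 75, 217 and 241 UMIs against 1, 0 and 0, and Pou3f3 had 16, 81 and 24 against 0. Pou3f2 and Myt1 were the others with the widest differences, at 8, 46 and 24 and at 24, 19 and 19 UMIs.

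Against -VE-organoids the 4 lists gave 14 of 20, 13 of 20, 11 of 15 and 7 of 12 genes called higher and none lower, beside 15.9% of all genes. Between -VE and ENR they gave 2, 0, 1 and 0 higher and 1 lower, beside 3.03% in either direction. In enteroendocrine cells the same lists gave 5 of 17, 3 of 21, 3 of 11 and 0 of 6 called higher between Hyper and ENR and 3 lower in all, where 5.96% of genes were called higher and 1.44% lower. The lists were chosen with results of these data known, and their counts are a description.

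The enteroendocrine list itself was mixed. Of 23 enteroendocrine genes 18 were tested in the other cells, and 9 were called higher and 3 lower, with a median of 1.25 (log2). Of all genes tested 18.4% were called higher and 4.82% lower. The filter on low counts limits this count and median as it does those of the lists above. Gcg, the proglucagon gene, had 0, 2 and 0 UMIs in Hyper against 66, 58 and 87 in ENR, while Cpe, a carboxypeptidase that trims peptide hormones, stood at 2.07, 1.77 and 1.92 CPM against 0.365, 0.181 and 0.159 (2.91 ± 0.30, adjusted p = 8.81e-05). Pax6 differed by 2.73 ± 0.64 (adjusted p = 0.00676). Neurog3 and its target Neurod1 were called higher (2.14 ± 0.18, adjusted p = 2.91e-05, and 1.83 ± 0.44, adjusted p = 0.00719) and Cck lower (-1.43 ± 0.47, adjusted p = 0.0287), and Chga and Chgb were not (0.73 ± 0.35 and 0.27 ± 0.36). The summed level of the list was 25.4 to 45.0 CPM in Hyper and 13.9 to 18.1 in ENR.

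Rest, which represses neuronal genes outside the nervous system, stood at 44.0, 43.4 and 42.0 CPM in the other cells of Hyper-organoids and at 41.3, 38.3 and 34.5 CPM in ENR. The difference of 0.06 ± 0.05 (log2) was not called (adjusted p = 0.407). Rest was lower in enteroendocrine cells, at 2.11 to 8.66 CPM in Hyper and 6.16 to 6.99 in ENR. Of 11 genes of the Rest complex, Rcor2 was the only gene called (beside 18.4% of all genes called higher), at 27.8, 22.3 and 16.3 CPM against 8.46, 8.78 and 6.42 (1.36 ± 0.18, adjusted p = 0.000377).

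The genes most like each member were taken over 50 sums of a class in a library by Pearson's r of log CPM. They are a description, since classes of a library share its depth. Tubb3 was followed most closely by Celf3 (0.996), Kcnc1 (0.994) and Neurod2 (0.994), Stmn2 by Nrsn1 (0.990) and Rtbdn (0.989), and Stmn3 by Pcsk2os1 (0.980), Phyhipl (0.977) and Cpxm2 (0.975). Nefl was followed by Gng2 (0.982), Sept3 (0.979) and Rhbdl3 (0.978), and Nefm by Dbn1 (0.985), Kcnh8 (0.981) and Rhbdl3 (0.980). Snap25 went with Adcy2 (0.982), Cpe (0.977) and Lmx1a (0.977), Map2 with Sobp (0.969), Asxl3 (0.964) and Kcnj3 (0.961), and Uchl1 with Ephx4 (0.939), Syngr3 (0.935) and Pcbp3 (0.932). Syt1 went with Cdh4 (0.941), Cartpt (0.935) and Scrt1 (0.933). The values were lowest for Gap43, with Hs3st3a1 (0.917), Nebl (0.902) and Gm45623 (0.893).

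The colonic crypt libraries, taken from the animal, held 1132 cells of normal mice and 1933 of DSS-treated mice. Not all were epithelium, since the leukocyte marker Ptprc had a UMI in 200 and 369 of them, so levels over a whole library mix cell types. With 1 library each there is no test. Chga and Chgb marked cluster 16, which held 16 cells of the normal and 43 of the DSS library. Snap25 had 55 of its 57 UMIs in that cluster in the normal library and 116 of 121 in the DSS library, or 354 and 407 CPM of the cluster. Stmn3 had all of its 9 and 13 UMIs there, and Nefm 23 of 38 and 23 of 30. Tubb3 had 1 of 6 and 3 of 7 there, so most of its few UMIs lay in other clusters. As CPM of the cluster it was nevertheless highest in cluster 16, at 6.43 and 10.5, against at most 3.57 and 5.40 in any other cluster.

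Map2 had 8 of 20 UMIs in cluster 16 in the normal and 12 of 18 in the DSS library, where all 8 Nefl UMIs lay in it too. Over the whole libraries Nefl stood at 0.0502 CPM in normal crypts (95% Poisson interval 0.00127 to 0.280) and 0.247 CPM after DSS (0.107 to 0.487), so the intervals overlapped. Uchl1 went the other way, at 2.21 (1.61 to 2.97) and 0.309 (0.148 to 0.568) CPM, but 43 of its 44 UMIs in the normal library came from 1 cell. Likewise 25 of the 26 Stmn2 UMIs of the normal library came from 1 cell, in cluster 18, where 7 of 11 cells had a UMI of Ptprc. These libraries had medians of 18374.5 and 16051 UMIs per cell and came from another part of the gut, so they are not compared with the organoids.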

How the data were processed

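Deposited UMI counts per gene and barcode were used. The authors made them with Cell Ranger (3.0.0 in the processing notes, 3.1.0 in the matrix headers) on mm10 from 10x 3′ libraries. The cells kept, and their classes, were taken from the deposited annotation, which the authors made with Seurat 3.1.4. Its cells had at least 501 genes and up to 20.0% mitochondrial UMIs, a cut other than the 1500 genes and 25% of the methods. Counts were summed per library and class.

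Sums were fitted over all genes with edgeR 4.0.16 (TMM, filterByExpr, quasi-likelihood) in R 4.3.3. Classes were also compared within libraries, with the library as a block. Scripts were tested on simulated data. Alternatives included DESeq2 1.42.0, other filters, the culture series as a block and leaving out each library. Series here means the shared first character of the sample descriptions, whose meaning the labels do not give. Libraries of the same series (2, 6 or C) deviated together (correlations of 0.17 to 0.436 between ENR and Hyper). The main fits between groups did not use this pairing, so their p-values are unpaired. It entered only as the block of an alternative and in repeated permutation tests. Permutation tests were exact, 2-sided and unpaired, and were repeated within the pairs after the data were seen.

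Genes named were all 10 members, fixed reference genes, the 4 most changed called genes of each list and the 3 most like each member. A gene at 0 in a group has a bound against 3 counts. The members and lists were chosen with earlier results of these data known. The merged count table was not used here, and a few genes that these rules name are not reported here.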

Additional observations from a re-analysis of the deposited data

Results flagged for a closer look

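The first set of results was picked out because the change of a gene differed between enteroendocrine and other cells in the same fit. Between Hyper and ENR the excess of the change in other cells (log2) was 1.58 for Tubb3, 5.35 for Nefl, 2.46 for Nefm, 5.76 for Snap25, 4.61 for Uchl1 and 4.86 for Map2. Those of Nefl, Snap25, Uchl1 and Map2 rest on few ENR UMIs outside the class. Between Hyper and -VE it was 5.10 for Nefl (adjusted p = 7.45e-10 in edgeR), 1.86 for Nefm (5.17e-06), 4.45 for Snap25 (7.16e-09), 4.36 for Uchl1 (0.000144) and 3.46 for Map2 (0.0192). The Map2 value lost its call without -VE replicate 2 or without Hyper replicate 2, where it ranged from 2.87 to 4.09 over the alternatives.

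A second set lay in barcodes that the authors did not keep (1712 to 4122 per organoid library) and that no comparison above used. In the Hyper libraries Nefl stood there at 9.06, 4.57 and 3.34 CPM, Nefm at 17.4, 12.3 and 8.68, Snap25 at 3.65, 3.47 and 1.35, Uchl1 at 0.823, 1.55 and 0.876 and Map2 at 1.06, 1.28 and 0.637. Tubb3 stood at 0.706, 1.10 and 0.637 CPM, from 6, 12 and 8 UMIs. These members were picked because every Hyper value was above every ENR value, with over 3 UMIs in each Hyper library. Their separation from ENR was thus fixed by the choice and is no result. The other members did not meet this rule, and the share of all genes that would is not given here. Each lowest Hyper value was also above every -VE value. The highest in ENR was 0.269 for Nefl, 1.46 for Nefm, 0.361 for Snap25, 0.0925 for Uchl1, 0.0768 for Map2 and 0.316 for Tubb3. These barcodes also held Chgb at 19.3 to 105 CPM in Hyper and 7.31 to 66.2 CPM in ENR. No class is given for them, and the part of enteroendocrine cells among them was not tested.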

How the results depend on the processing

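Nefl, Nefm, Snap25, Uchl1 and Map2 kept their calls in the other cells and in the stem class, against ENR and against -VE, under all alternatives in which they were tested, DESeq2, thinning and each left-out library among them. Requiring at least 10 CPM in 2 libraries took them out of the test, so that 0 members were called in other cells and the stem class and 2 over all kept cells in both Hyper contrasts. That filter left 798 and 519 genes called in other cells (3652 and 2909 with filterByExpr, against ENR and -VE), 627 and 504 in the stem class (2509 and 2296) and 800 and 528 over all kept cells (3675 and 2985). Between -VE and ENR it left 181 (477), 41 (70) and 166 (409).

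With no filter on low counts, enteroendocrine calls numbered 1256 against ENR (818), 893 against -VE (443) and 268 between -VE and ENR (21), where 1 member, Nefl, was then called, and stem calls between -VE and ENR numbered 183. Thinning gave 250 enteroendocrine calls against -VE and 37 between -VE and ENR, where DESeq2 gave 47 and dropping the top 5% by doublet score gave 40. DESeq2 gave 154 stem calls between -VE and ENR. With the culture series as a replicate block there were 140 of these, and 1 member, Nefl (1.19, log2, adjusted p = 0.0481), was called over all kept cells between -VE and ENR. The block changed no other call of a member in edgeR, and within pairs the exact permutation p of the shares of the 5 genes was 0.25 in place of 0.1.

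Leaving out each library in turn gave 563 to 894 enteroendocrine calls against ENR, 134 (without -VE replicate 2) to 465 against -VE, and 3 to 64 between -VE and ENR (3 without ENR replicate 1, 5 without -VE replicate 2, 13 without ENR replicate 3, 38 without Hyper replicate 1 and 64 without -VE replicate 1). Without Hyper replicate 2 and without Hyper replicate 3 the count against -VE was 286 and 261. Between -VE and ENR leaving out each library gave 8 to 149 stem calls, 96 to 519 over all kept cells and 106 to 605 in other cells. The lowest of these were without ENR replicate 1 for stem cells and without -VE replicate 2 for the others, and leaving out any ENR replicate lowered all 3 counts by over 1.5 times (to 277, 192 and 281 in other cells). The causes were not tested. Members called in other cells ranged from 5 to 7 against ENR (7 without either -VE library, and 7 with no filter, when more members were tested) and from 5 to 6 against -VE, and in enteroendocrine cells from 4 to 5 and from 3 to 5. No called direction was reversed, but some differences that were not called changed sign, among them Tubb3 over all kept cells between Hyper and ENR (-0.59 to 0.12), Tubb3 in other cells between Hyper and -VE (-0.16 to 0.65) and Snap25 in other cells between -VE and ENR (-2.91 to 1.71). Gap43, Syt1, Stmn2 and Stmn3 in other cells were limited by depth, at 4 to 26 UMIs over the 3 Hyper libraries.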
